A study of Mus musculus with 18 samples.

Results

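Endothelial cells keep their identity through a small set of transcription factors, and 10 well-known ones were followed here across blood vessel endothelium, high endothelium and a tumour cell line of the mouse. The genes were Sox7, Sox17 and Sox18 of the SOX family, Erg, Fli1 and Ets1 of the ETS family, Gata2 of the GATA family, Klf2 and Klf4 of the KLF family, and Nr2f2, which encodes COUP-TFII. They were taken by name as recognised endothelial factors, with earlier results of these data known, and make up 10 of the 55401 genes of the endothelial table and 10 of the 22612 lines of the tumour cell table. All 10 passed the filter on low values in the endothelial table, and 4 of 10 passed it in the tumour cell table.

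RNA was sequenced from 18 libraries in 6 groups of 3. Blood vessel endothelial cells (BECs) came from the mammary fat pad of mice without tumours (BEC normal) or from primary EO771 tumours grown in that fat pad (BEC tumour). Endothelial cells of high endothelial venules (HECs) came from the inguinal lymph nodes of mice without tumours (HEC normal) or from lymph node metastases (HEC tumour). All 4 groups were wild-type female C57BL/6 mice, and cells were sorted as CD45- and CD31high, with the PNAd antibody separating HECs (PNAd+) from BECs (PNAd-). EO771 is a mouse mammary carcinoma line of the same strain, and its cells were cultured with vehicle or with 12-HETE, the arachidonic acid product of the lipoxygenase ALOX12. The HECs and the BECs came from different organs, and the enzymes and length of tissue digestion differed between fat pad, tumour and lymph node, so that cell type, organ and handling cannot be told apart between HECs and BECs, nor tissue and handling between BEC tumour and BEC normal. HEC tumour and HEC normal both came from lymph nodes, for which the methods give a single digestion. The study calls its replicates independent experiments, the labels only number them, and whether each came from separate mice is not given in the sources used here, so p-values measure the spread between these libraries.

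As background, SOX7, SOX17 and SOX18 form the SOXF group, which bind DNA through an HMG box and together direct arterial, venous and lymphatic vessel formation, with SOX17 best known in arteries and SOX18 in early vessels and in the lymphatic programme. ERG and FLI1 are closely related ETS proteins that hold endothelial junction genes active in the adult, and ETS1 is linked with vessel growth. GATA2 acts in endothelium and in blood stem cells, KLF2 and KLF4 are induced by laminar blood flow and restrain inflammation and clotting, and COUP-TFII sets venous identity by opposing Notch signalling. High endothelial venules are the specialised venules of lymph nodes through which lymphocytes enter from the blood, and their tall endothelial cells make sulphated ligands for L-selectin.

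The deposited values summed to 56.4 to 79.4 M in each endothelial library, but low values piled up in steps of 3.8 to 3.83 units, which corresponds to 14.8 to 20.9 M steps a library. The EO771 libraries held 17.3 to 18.6 M counts. Levels below are normalised counts, the deposited value divided by the library's size factor, given for replicates 1, 2 and 3 in that order, or transcripts-per-million (TPM) values where genes are compared with each other per exonic length. The endothelial markers Cdh5 and Pecam1 stood at 857 to 970.3 and 798 to 879 counts-per-million (CPM) in BEC normal and at no less than 609 CPM in any endothelial library. Other genes of the 10-gene endothelial list were less even: Cldn5 was at 232 to 280.4 CPM in BEC normal and at most 2.01 CPM elsewhere, and Kdr went from 324 to 381 CPM in BEC normal to 66.6 to 76.6 CPM in BEC tumour, with 3 of 10 called lower in BEC tumour and 2 of 10 in HEC normal than in BEC normal. The high endothelial genes Glycam1 and Fut7 were at 573 to 592 and 397 to 434 CPM in HEC normal against at most 0.408 CPM of either in BECs. In HEC tumour Glycam1 was at 1078 to 1105 CPM, while Fut7 was uneven, at 221 to 1021 CPM. Chst4 was at 916 to 939 CPM in HEC tumour and from 0.0596 CPM (replicate 2) to 297 CPM in HEC normal, while Madcam1, Ccl21a and Ackr1 were at no more than 0.257 CPM in HECs. The 6 myeloid markers summed to 1470.3 to 1966 CPM in BEC tumour against 114 to 135 CPM in BEC normal. Of these, 6 of 6 were called higher in BEC tumour than in BEC normal. Their sum was 485 to 509 CPM in HEC normal and 357 to 375 CPM in HEC tumour. Most of the HEC sums was Cd68, at 477 to 503 CPM in HEC normal and 350 to 370 CPM in HEC tumour. Every other myeloid marker was at no more than 6.62 CPM in HECs. Cd68 also gave most of the sum in BEC normal. Against BEC normal, 1 of the 6 was called higher and 2 lower in HEC normal. The 7 fibroblast and pericyte markers summed to 204 to 211 CPM in BEC normal and to 10.6 to 58.1 CPM in the other endothelial groups. The 6 epithelial markers summed to 8.98, 12.0 and 77.6 CPM in BEC tumour replicates 1, 2 and 3, against 1.51 to 2.94 CPM in BEC normal. Of these, 5 were called higher in BEC tumour. Their part in the values of the factors was not tested. In sorted but bulk samples, fewer cells of a type and less RNA per cell cannot be told apart.

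The factors did not move as a block. Differences were tested with DESeq2 in one fit of the 12 endothelial libraries, and a gene was called at a Benjamini-Hochberg adjusted p under 0.05, over all 18511 genes tested, with an absolute log2 fold change over 1. Between HEC normal and BEC normal 2 of 10 factors were higher in HECs (Sox7 and Klf2) and 2 were lower (Sox17 and Sox18), where 17.1% of all genes were called higher and 15.1% lower. Between HEC tumour and BEC tumour 5 of 10 were higher in HECs (Sox7, Sox18, Klf2, Klf4 and Nr2f2) and 0 were lower, against 11.2% and 10.7% of all genes. The median log2 fold change of the 10 factors was -0.26 in the first of these comparisons and 0.76 in the second, beside 0.0046 and 0.0060 over all genes tested.

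With tumour, more factors were called in BECs than in HECs, as was also the case over all genes. In BEC tumour 1 of 10 factors was higher than in BEC normal (Sox7) and 3 were lower (Sox17, Sox18 and Nr2f2), where 12.4% of all genes were called higher and 10.8% lower. Between HEC tumour and HEC normal 0 of 10 were called by DESeq2 and 0 by edgeR, although 8 had an unadjusted p under 0.05 (42.3% of all genes did), and of all genes 4.58% were called higher and 3.21% lower. The difference between those changes, tested as an interaction, was called for 5 of 10 factors: it was higher in HECs for Sox17, Sox18, Nr2f2 and Ets1 and lower for Erg, where 11.2% and 12.1% of all genes were called. Sox17 had few counts in both HEC groups, so its interaction rests on the BEC values. The factors had a median log2 fold change of -0.33 in BECs, 0.22 in HECs and 0.48 in the interaction, beside 0.0083, 0.019 and -0.0019 over all genes. These comparisons share libraries, so each factor's values are set side by side below without a further test.

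**Figure D1:**
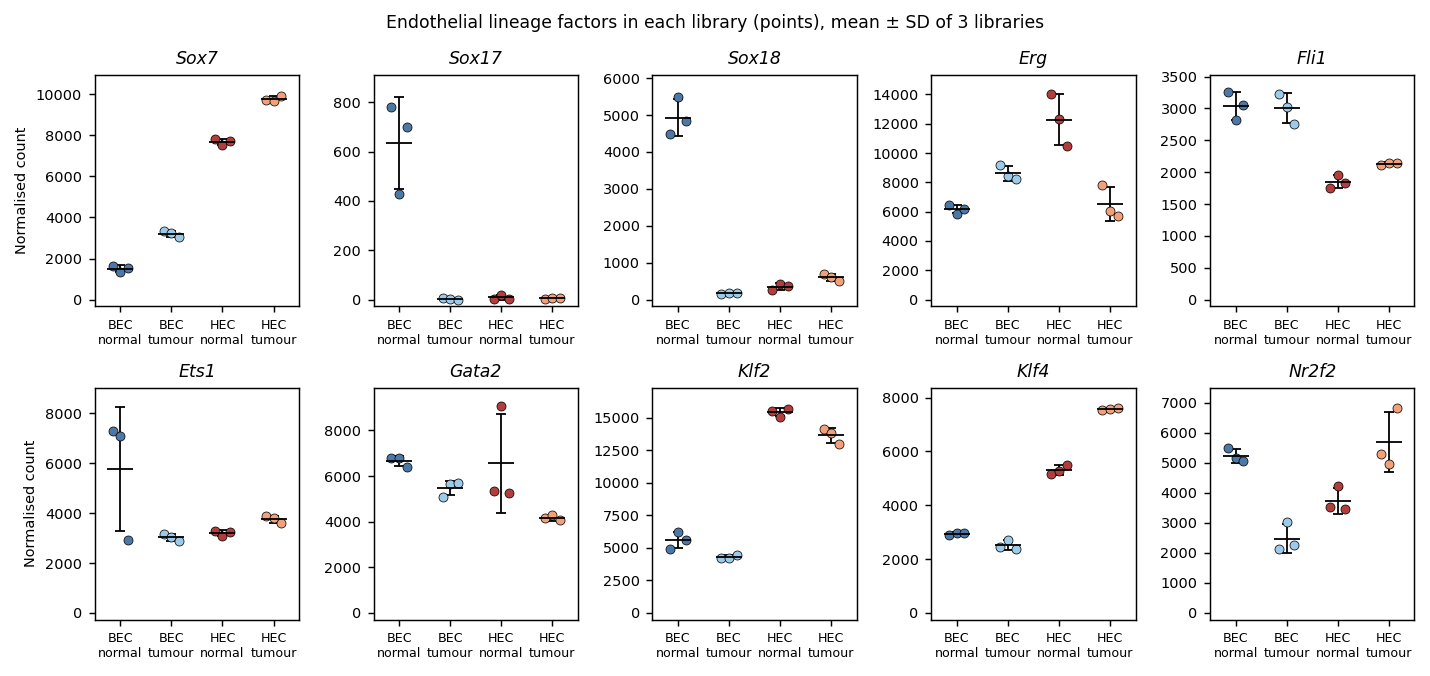
Normalised counts (vertical axes, each from 0 and on its own linear scale) of the 10 factors in each of the 3 libraries (points) of the 4 endothelial groups, with the group mean (bar) and SD (whiskers). Sox17 and Sox18 stood out in BEC normal, Sox7, Klf2 and Klf4 were higher in both HEC groups, and Ets1 in BEC normal and Gata2 in HEC normal each had a library apart from its group.

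The SOXF genes are the members with the widest differences. Sox7 (ENSMUSG00000063060, chr14:63943673-63950732 on GRCm38, plus strand), Sox17 (ENSMUSG00000025902, chr1:4490931-4497354, minus strand) and Sox18 (ENSMUSG00000046470, chr2:181669836-181671640, minus strand) lie on 3 chromosomes and share their HMG box. The longest exact run shared by their transcripts was 22 bases for Sox7 and Sox17, 20 for Sox7 and Sox18, and 29 for Sox17 and Sox18. Sox17 also overlaps 804 exonic bases of the opposite-strand gene Gm37587, which had deposited values of 0 to 8 in every endothelial library.

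Sox7, whose product takes part in early vessel formation, was lowest in normal BECs, next in tumour BECs, then in normal HECs and highest in tumour HECs, and no groups overlapped. Its normalised counts were 1650.0, 1323 and 1541 in BEC normal and 3324, 3221 and 3049 in BEC tumour. They were 7819, 7535 and 7702 in HEC normal and 9737, 9656 and 9904 in HEC tumour. The libraries of each group thus stood close together, and every HEC library was above every BEC library. On the log2 scale HECs exceeded BECs by 2.35 ± 0.079 (SE, 3 libraries a group, adjusted p = 1.16e-191) between HEC normal and BEC normal and 1.61 ± 0.077 (SE, 3 libraries a group, adjusted p = 2.23e-94) between HEC tumour and BEC tumour. With tumour it was 1.09 ± 0.080 (adjusted p = 9.50e-41) in BECs and 0.35 ± 0.077 (adjusted p = 4.48e-05) in HECs, and the call in BECs was lost at 0.99 when replicate 2 of BEC normal was left out.

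Sox18, a regulator of vessel growth and of the lymphatic programme, stood highest in the endothelium of normal fat pad. Its normalised counts were 4487, 5486 and 4826 in BEC normal and 148, 191 and 172 in BEC tumour. In HEC normal they were 251, 435 and 366, and in HEC tumour 689, 613 and 506. Every BEC normal library thus exceeded every other library, and BEC tumour was the lowest group, below both HEC groups without overlap. Its log2 fold change was -4.85 ± 0.20 (SE, 3 libraries a group, adjusted p = 7.82e-126) for BEC tumour against BEC normal and -3.82 ± 0.20 (SE, 3 libraries a group, adjusted p = 1.90e-81) for HEC normal against BEC normal. Between HEC tumour and BEC tumour it was 1.82 ± 0.20 (adjusted p = 6.08e-18), so the sign of the difference between HECs and BECs turned with tumour, and the interaction was 5.64 ± 0.28 (adjusted p = 2.77e-85). Within HECs the log2 fold change with tumour was 0.78 ± 0.20 (adjusted p = 5.20e-04), under the fold threshold.

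Sox17, the arterial SOXF factor, was detected well in BEC normal alone. Its normalised counts were 779, 426 and 699 there and 8.35, 3.38 and 0 in BEC tumour. They were 4.06, 19.3 and 3.82 in HEC normal and 3.46, 4.93 and 5.53 in HEC tumour. The 3 low groups overlapped each other and held 3, 7 and 3 steps in all, against 507 steps in BEC normal. Taking 1 step as 1 fragment, the level in BEC normal was higher than in BEC tumour by a ratio of 194 (exact 95% counting interval 66 to 944), than in HEC normal by 73.6 (exact 95% counting interval 35.4 to 184) and than in HEC tumour by 158 (exact 95% counting interval 53.9 to 771), intervals that cover counting error only. The fitted log2 fold changes were -7.36 ± 0.74 (adjusted p = 4.19e-22) for BEC tumour against BEC normal and -6.13 ± 0.68 (adjusted p = 2.13e-18) for HEC normal against BEC normal, and neither is a bound. At these counts a difference between HEC tumour and BEC tumour was not detectable, with a fitted value of 0.27 ± 0.84 and an adjusted p of 0.811.

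Per length, the make-up of the SOXF group differed between BEC normal and the other 3 groups. In BEC normal Sox18 gave 83.7% of SOXF TPM on average (80.7 to 87.4% over the libraries), Sox7 gave 12.6% and Sox17 gave 3.71%. Sox7 gave 90.1% in BEC tumour, and among HECs 91.4% in HEC normal and 88.8% in HEC tumour. The family total was nonetheless 136 ± 5.27 TPM (SD, n = 3) in BEC normal and 134 ± 1.39 TPM in HEC tumour, with 93.6 ± 0.561 TPM in HEC normal and 42.9 ± 2.39 TPM in BEC tumour. BEC normal and HEC tumour thus overlapped in the total while the leading gene changed, a description of these libraries without a test.

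**Figure D2:**
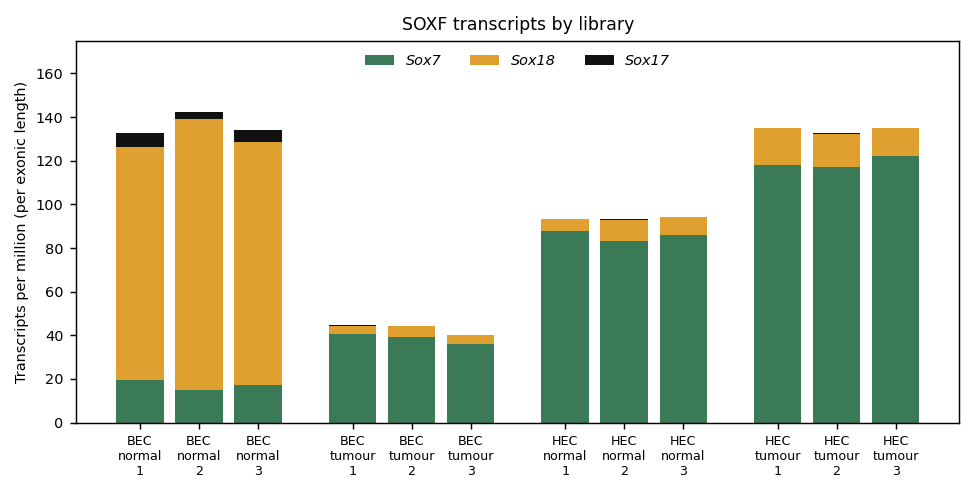
Stacked TPM (vertical axis, linear from 0) of Sox7, Sox18 and Sox17 in each of the 12 endothelial libraries (bars, 3 for each group). Sox18 fills most of the bar in the BEC normal libraries and Sox7 in the other 9, and the total is lowest in BEC tumour.

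Markers that could travel with Sox17 and Sox18 were summed in the same libraries. The 6 arterial markers summed to 116 to 125 CPM in BEC normal and 85.1 to 88.4 CPM in BEC tumour, beside 50.7 to 55.1 CPM in HEC normal and 85.6 to 92.8 CPM in HEC tumour, most of it from Efnb2, while Gja5, a connexin of arteries, was at 1.43 to 1.85 CPM in BEC normal and at most 0.179 CPM in the other endothelial groups. The 6 lymphatic markers summed to 341 to 362 CPM in BEC normal and 201 to 223 CPM in BEC tumour, beside 282 to 338 CPM in HEC normal and 350 to 360 CPM in HEC tumour. Lyve1 and Flt4, the latter at 82.4 to 138 CPM over all groups, gave most of the lymphatic sum. Lyve1 was at 194 to 219 CPM in BEC normal and 46.9 to 54.8 CPM in BEC tumour. It was at 174 to 232 CPM in HEC normal and 232 to 242 CPM in HEC tumour. Pdpn was at 59.8 to 68.2 CPM in BEC normal, 24.7 to 32.8 CPM in BEC tumour and at most 4.0 CPM in HECs. The lymphatic master gene Prox1 was at most 0.617 CPM in any endothelial library. The fibroblast and pericyte sum given above was also highest in BEC normal. The part of these markers in the SOXF differences was not tested.

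The ETS members differed less than the SOXF genes. Erg (ENSMUSG00000040732, chr16:95359169-95586593, minus strand) and Fli1 (ENSMUSG00000016087, chr9:32422204-32542861, minus strand) encode the paired maintenance factors of endothelium, and their longest shared exact run was 22 bases. Erg counts were 6436, 5864 and 6198 in BEC normal and 9195, 8406 and 8249 in BEC tumour. They were 14019, 12351 and 10483 in HEC normal and 7816, 6031 and 5706 in HEC tumour. HEC normal stood above every other group, and HEC tumour overlapped BEC normal. HEC normal against BEC normal gave a log2 fold change of 0.99 ± 0.13 (adjusted p = 7.13e-13), just under the fold threshold, and 1.04 with edgeR, which called it. TMM factors (1.04), division by the step (1.01) and a fit of the 2 groups alone (1.01) called it too. Leaving out replicate 1 of BEC normal, replicate 3 of HEC normal or replicate 3 of HEC tumour also brought it past the threshold, at 1.02, 1.1 and 1.00.

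The differences of Erg with tumour had opposite signs in the 2 cell types. In BECs its log2 fold change was 0.48 ± 0.13 (adjusted p = 9.20e-04), and in HECs it was -0.91 ± 0.13 (adjusted p = 1.83e-10), neither past the fold threshold. The interaction was -1.40 ± 0.19 (adjusted p = 2.06e-12) and was called. Leaving out replicate 3 of HEC normal or replicate 1 of HEC tumour brought the change in HECs past the threshold, at -1.02 and -1.06.

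Fli1 was steadier and differed more between the cell types than between the tumour states. Its counts were 3251, 2819 and 3052 in BEC normal and 3234, 3022 and 2764 in BEC tumour, groups that overlapped. They were 1759, 1962 and 1832 in HEC normal and 2106, 2143 and 2147 in HEC tumour, groups that did not overlap and lay below every BEC library. HECs against BECs gave -0.72 ± 0.086 (adjusted p = 5.44e-16) on the log2 scale without tumour and -0.50 ± 0.086 (adjusted p = 4.06e-08) with it, both under the fold threshold. The change with tumour in BECs was -0.017 with a 95% interval of -0.18 to 0.15, and in HECs it was 0.20 ± 0.087 (adjusted p = 0.0526). Per length, Erg gave 67.1% of the summed Erg and Fli1 TPM in BEC normal, 74.3% in BEC tumour, against 86.8% in HEC normal and 75.2% in HEC tumour.

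Ets1 (ENSMUSG00000032035, chr9:32636221-32757820, plus strand), near Fli1 on chromosome 9 and linked with growing vessels, was split within BEC normal. Its counts were 7309.7, 7088 and 2914 in BEC normal and 3172, 3045 and 2883 in BEC tumour. They were 3289, 3087 and 3235 in HEC normal and 3876, 3807 and 3604 in HEC tumour. Replicate 3 of BEC normal thus fell among the values of the other groups, while replicates 1 and 2 stood above all of them. The log2 fold changes were -0.85 ± 0.25 (adjusted p = 0.0017) for HEC normal against BEC normal and -0.93 ± 0.25 (adjusted p = 7.25e-04) for BEC tumour against BEC normal, under the fold threshold. Without replicate 3 of BEC normal they were -1.18 (adjusted p = 5.27e-63) and -1.26 (adjusted p = 2.70e-71), both called lower. Between HEC tumour and BEC tumour the value was 0.31 ± 0.25 (adjusted p = 0.307), and between HEC tumour and HEC normal 0.23 ± 0.25 (adjusted p = 0.528).

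The called interaction of Ets1, 1.16 ± 0.36 (adjusted p = 0.00363), was lost at 0.96 without replicate 1 and at 0.99 without replicate 2 of BEC normal, and was 1.49 without replicate 3. Such single departures were uncommon in that library. Among the 8931 genes with a mean of at least 1000 in BEC normal, replicate 3 stood over 1.5-fold from the other libraries, themselves within 1.1-fold, in 47 genes (0.526%), Ets1 being one of these.

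Gata2 (ENSMUSG00000015053, chr6:88193891-88207032, plus strand), the zinc finger factor of endothelium and blood stem cells, also had 1 library apart. Its counts were 6791, 6809 and 6394 in BEC normal and 5099.9, 5634 and 5679.9 in BEC tumour. They were 5343, 9056 and 5253 in HEC normal and 4148, 4275 and 4057 in HEC tumour. Replicate 2 of HEC normal was the highest of all 12 libraries, and HEC tumour was below every other group. HEC tumour against HEC normal gave a log2 fold change of -0.66 ± 0.18 (adjusted p = 0.00111), and -0.35 (adjusted p = 6.69e-06) without that replicate, a move of its size by over 1.5 times. Between HEC normal and BEC normal it was -0.025 ± 0.18 (adjusted p = 0.914) and -0.33 (adjusted p = 1.08e-05) without it. Replicate 2 of HEC normal stood apart in the same sense in 90 of 8741 genes (1.03%), and it is also the library with almost no Chst4. HEC tumour against BEC tumour gave -0.40 ± 0.18 (adjusted p = 0.0476), BEC tumour against BEC normal -0.28 ± 0.18 (adjusted p = 0.168), and the interaction -0.37 ± 0.25 (adjusted p = 0.227). Blood cells also express Fli1, Ets1 and Gata2. The 6 markers of megakaryocytes and platelets summed to 22.4 to 28.7 CPM in BEC normal and 27.2 to 32.1 CPM in BEC tumour. Their sums were 16.6 to 19.2 CPM in HEC normal and 12.6 to 14.1 CPM in HEC tumour. The 7 of T and B cells summed to at most 3.38 CPM in any endothelial library, and the myeloid sums are given above. The part of these blood cells in the values was not tested.

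Klf2 (ENSMUSG00000055148, chr8:72319033-72321656, plus strand) and Klf4 (ENSMUSG00000003032, chr4:55527143-55532466, minus strand), the flow-induced pair, had higher levels in every HEC library than in any BEC library. Since they shared this direction, the 250 bases before the RefSeq start of each are shown from GRCm38.p6, with capitals at matches, on either strand, to the KLF letters CACCC, the GC box GGGCGG and the MEF2 motif (CTA and TAG with 4 free bases between), whose matches did not overlap those of another motif.
Klf2, chr8:72318812-72319061, plus strand: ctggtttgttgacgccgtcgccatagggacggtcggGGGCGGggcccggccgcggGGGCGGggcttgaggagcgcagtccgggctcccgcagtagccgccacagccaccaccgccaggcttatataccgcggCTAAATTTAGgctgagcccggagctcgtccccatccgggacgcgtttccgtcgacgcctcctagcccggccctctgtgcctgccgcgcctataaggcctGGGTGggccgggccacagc
Klf4, chr4:55532476-55532725, minus strand: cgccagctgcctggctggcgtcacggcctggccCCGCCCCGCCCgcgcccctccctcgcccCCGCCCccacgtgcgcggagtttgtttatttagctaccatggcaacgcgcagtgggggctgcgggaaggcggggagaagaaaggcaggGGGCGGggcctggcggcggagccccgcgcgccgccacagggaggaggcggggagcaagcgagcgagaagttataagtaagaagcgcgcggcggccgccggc
The Klf2 window held 1 match to CACCC, 2 to GGGCGG and 1 to the MEF2 motif, and the Klf4 window held 4 to GGGCGG, of which the first and the next overlap. Over 32851 promoters of the same length, 52% held CACCC, 32.7% held GGGCGG and 3.2% held the MEF2 motif. MEF2 factors are known activators of Klf2, and their part in the Klf2 levels here was not tested. ETS letters (CGGAAG), SOX letters (ACAAT), GATA letters (AGATAA) and COUP-TF letters (AGGTCA) had 0 matches in both windows, and were held by 13.6, 27.7, 9.99 and 14% of promoters. A match is a description of letters and not a bound site.

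Klf2 was the most abundant factor per length in HECs. Its normalised counts were 4955, 6197 and 5609 in BEC normal and 4243, 4199 and 4477 in BEC tumour. They were 15572, 15090 and 15676 in HEC normal and 14153, 13840 and 13006 in HEC tumour. Every HEC library was above every BEC library, and within each cell type the tumour libraries were the lower ones. HECs exceeded BECs by 1.47 ± 0.082 (SE, 3 libraries a group, adjusted p = 1.03e-70) on the log2 scale without tumour and 1.67 ± 0.082 (SE, 3 libraries a group, adjusted p = 3.99e-90) with it. With tumour it was -0.38 ± 0.082 (adjusted p = 1.82e-05) in BECs and -0.18 ± 0.081 (adjusted p = 0.0767) in HECs, and the interaction was 0.20 ± 0.12 (adjusted p = 0.152).

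Klf4 was likewise separated by group, in another order. Its counts were 2877, 2967 and 2972 in BEC normal and 2449.8, 2717 and 2383 in BEC tumour. They were 5159, 5265 and 5503 in HEC normal and 7521, 7587 and 7617 in HEC tumour. The 4 groups did not overlap, with HEC tumour the highest and BEC tumour the lowest. HECs against BECs gave 0.85 ± 0.061 (adjusted p = 3.85e-43) on the log2 scale without tumour, under the fold threshold, and 1.59 ± 0.061 (adjusted p = 8.79e-148) with tumour, past it. With tumour it was 0.51 ± 0.060 (adjusted p = 3.76e-16) in HECs and -0.22 ± 0.062 (adjusted p = 8.85e-04) in BECs, and the interaction was 0.74 ± 0.086 (adjusted p = 1.94e-16), under the fold threshold of the call.

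The immediate early genes of tissue handling were higher in HECs in sum, as Klf2 and Klf4 were. With tumour their sum was higher in both cell types, as Klf4 was in HECs alone and Klf2 in neither. The 8 genes of that list summed to 408 to 448 CPM in BEC normal and 496 to 527 CPM in BEC tumour, against 1119 to 1194 CPM in HEC normal and 1402 to 1430.2 CPM in HEC tumour. Jun gave the larger part of the rise, at 87.1 to 93.3 CPM in BEC normal and 615 to 647 CPM in HEC normal, whereas Egr1 was at 79.6 to 87 and 14.6 to 19 CPM. Of the 8, 5 were called higher and 1 lower in HEC normal than in BEC normal, and between the tumour groups 5 were called higher and 0 lower in HECs. With tumour 2 were called higher and 3 lower in BECs. Their part in the KLF differences was not tested.

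Nr2f2 (ENSMUSG00000030551, chr7:70351944-70366735, minus strand), the venous factor, was called lower with tumour in BECs and had a difference of the opposite sign in HECs. Its counts were 5505, 5178 and 5051 in BEC normal and 2147, 3018 and 2256 in BEC tumour. They were 3516, 4241 and 3471 in HEC normal and 5299, 4974 and 6837 in HEC tumour. HEC tumour overlapped BEC normal, HEC normal lay below both, and BEC tumour was the lowest group. With tumour its log2 fold change was -1.08 ± 0.16 (adjusted p = 4.44e-11) in BECs and 0.61 ± 0.16 (adjusted p = 6.37e-04) in HECs, under the fold threshold. The interaction was 1.69 ± 0.22 (adjusted p = 3.81e-13).

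Between the cell types Nr2f2 was -0.49 ± 0.16 (adjusted p = 0.00398) without tumour and 1.20 ± 0.16 (adjusted p = 2.08e-13) with it, so the sign turned as it did for Sox18. Without replicate 1 of BEC tumour the change in BECs was -0.99, under the fold threshold. The opposite-strand gene B130024G19Rik overlaps 643 exonic bases of Nr2f2, and whether counting used strand is not given in the sources used here. Its deposited values were 22 to 104 in the endothelial libraries.

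**Figure D3:**
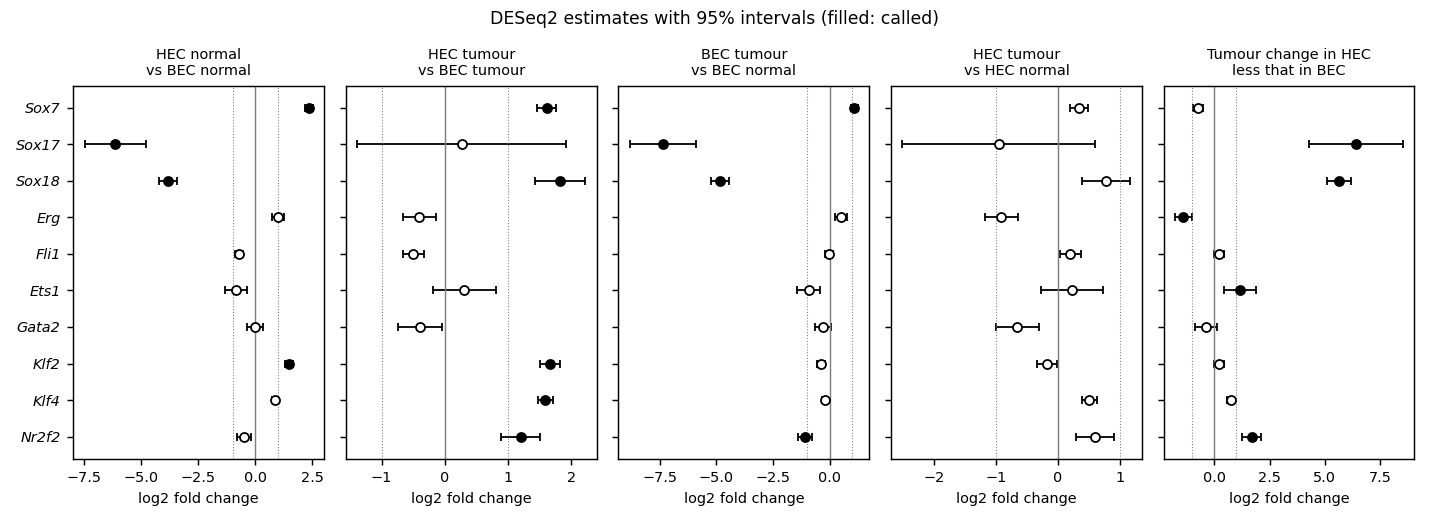
DESeq2 log2 fold changes (horizontal axes, with their own range in each panel) of the 10 factors in the 4 comparisons and in the difference between the tumour changes, with 95% intervals; filled points were called, and dotted lines mark log2 fold changes of -1 and 1. Only Sox17 and Sox18 lie beyond 3 log2 units, and HEC tumour against HEC normal has no filled point.

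Per length, the factors ranked differently in the 2 cell types. In BEC normal the highest were Sox18 at 114 ± 9.08 TPM and Klf2 at 113 ± 9.8 TPM (SD, n = 3), which overlapped, followed by Erg at 66.9 ± 4.79 TPM. In HEC normal they were Klf2 at 307 ± 8.33 TPM, Erg at 130.2 ± 19.2 TPM and Sox7 at 85.6 ± 2.25 TPM. In BEC tumour Erg, at 99.3 ± 7.32 TPM, and Klf2, at 93 ± 1.5 TPM, were above the rest, and in HEC tumour Klf2 at 298 ± 10.1 TPM was followed by Sox7 at 119 ± 2.63 TPM and Klf4 at 100 ± 1.56 TPM. The lowest member in all 4 groups was Sox17, from 0.0331 to 5.02 TPM.

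For each factor, the 2 protein-coding genes with the most alike pattern were found by Pearson correlation of log2(normalised count + 1) over the 12 endothelial libraries, among 11801 genes with a mean of at least 100. These libraries share group, organ and handling, so the values describe likeness only. Sox7 was nearest to Nefl (r = 0.998) and Swap70 (r = 0.997), Sox17 to Mtus2 (r = 0.990) and Grk6 (r = 0.968) and Sox18 to Col2a1 (r = 0.992) and Spry4 (r = 0.987). Erg was nearest to Sec22c (r = 0.954) and Mxd1 (r = 0.952), and Fli1 to Man2a1 (r = 0.993) and Polr1a (r = 0.981). Ets1 and Gata2, the factors with a library apart, had the weakest partners, Rap1gap2 (r = 0.875) and Bzw1 (r = 0.871) and Dnm3 (r = 0.875) and Vim (r = 0.867). Klf2 was nearest to Eno3 (r = 0.995) and Git1 (r = 0.995), Klf4 to Ezr (r = 0.996) and Vamp2 (r = 0.995), and Nr2f2 to Dysf (r = 0.954) and Hes1 (r = 0.944), Hes1 being a Notch-responsive repressor.

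Among 49 relatives from the same SOX, ETS, GATA, KLF and COUP families, 42 could be tested in endothelium. In HEC normal against BEC normal 5 higher and 11 lower were called, beside 17.1% and 15.1% of all genes. The list median log2 fold change was 0.11 beside the 0.0046 of all genes. The highest were Klf12, from a mean of 7.41 to 162 normalised counts, and Klf11, from 921 to 2629. The lowest were Sox9, a cartilage and progenitor factor, and Gata6, a factor of heart and mesoderm, which had 1 and 2 steps in all HEC normal libraries against 1392 and 1781 in BEC normal, for Sox9 a ratio of 1414 (exact 95% counting interval 253 to 55887). The same pair were the lowest in HEC tumour against BEC tumour, where 2 higher and 10 lower were called, beside 11.2% and 10.7% of all genes. Gata6 was at least 127-fold lower in HECs there, against a floor of 3 steps over the group. Klf9 and Klf6 were the highest there, at 1.49 ± 0.24 and 1.05 ± 0.086 log2.

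With tumour, 4 higher and 11 lower relatives were called in BECs and 1 higher and 4 lower in HECs. The shares of all genes were 12.4% and 10.8% in BECs and 4.58% and 3.21% in HECs. In BECs the highest were Spi1, which encodes the myeloid and B cell factor PU.1, from a mean of 14.2 to 850.1 normalised counts, and Klf12, from 7.41 to 191, beside the rise of the myeloid markers given above. The lowest were Gata4 at -3.58 ± 0.45 and Sox9 at -2.90 ± 0.32 log2. In HECs the lowest was Etv1 at -2.48 ± 0.40 log2 (adjusted p = 7.88e-09), and Gata6 was called at 2 steps against 0, for which no fold is given. In the interaction 7 higher and 5 lower were called, beside 11.2% and 12.1% of all genes. Sox9 at 3.02 ± 1.12 and Sox13 at 2.78 ± 0.30 log2 were the highest there. Spi1 at -7.56 ± 0.96 and Klf12 at -5.38 ± 0.82 log2 were the lowest. Sox9 stood at 1.35 and 1.48 normalised counts in HEC normal and HEC tumour and Spi1 at 38.3 and 11.9, so these fitted values rest on few counts and are no bounds. The list medians were -0.38 in BECs and -0.089 in HECs, beside 0.0083 and 0.019 over all genes.

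Of 24 other transcription factors of endothelium, 21 could be tested. In HEC normal against BEC normal 5 higher and 3 lower were called, beside 17.1% and 15.1% of all genes. In HEC tumour against BEC tumour 4 higher and 3 lower were called, beside 11.2% and 10.7%. Tal1 and Hhex, factors shared by blood and endothelium, were the highest without tumour, at 1.88 ± 0.084 and 1.80 ± 0.091 log2. Id1, an inhibitor of helix-loop-helix proteins and a target of BMP signalling, and Mef2a were the highest with tumour, at 2.08 ± 0.071 and 1.29 ± 0.13 log2. The forkhead genes Foxc1 and Foxc2 were the lowest in both, Foxc1 being at 0 in all HEC libraries and at least 293-fold lower in HEC normal than in BEC normal. The sum of fibroblast and pericyte markers moved with them, and its part was not tested.

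With tumour 3 higher and 4 lower of these were called in BECs, beside 12.4% and 10.8% of all genes. In HECs 1 higher and 0 lower were called, beside 4.58% and 3.21%. In the interaction 4 higher and 2 lower were called, beside 11.2% and 12.1%. The medians were -0.081, 0.0 and -0.0090 in that order. In BECs Tal1 and Meox1 were the highest, at 1.68 ± 0.084 and 1.37 ± 0.22 log2, and Foxc2 and Foxc1 the lowest, at -3.37 ± 1.15 and -2.65 ± 0.24 log2. The gene called in HECs was Mef2a, at 1.21 ± 0.13 log2 (adjusted p = 9.54e-19). The interaction was highest for Id1 and for Epas1, the hypoxia factor HIF-2α, at 1.97 ± 0.10 and 1.85 ± 0.13 log2, and lowest for Tal1 and Lmo2 at -1.70 ± 0.12 and -1.10 ± 0.43 log2.

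A list of 22 endothelial genes known to be bound or controlled by one or more of the factors could be tested in full. In HEC normal against BEC normal 1 higher and 6 lower were called, beside 17.1% and 15.1% of all genes. In HEC tumour against BEC tumour 5 higher and 1 lower were called, beside 11.2% and 10.7%. With tumour 1 higher and 6 lower were called in BECs, beside 12.4% and 10.8% of all genes. In HECs 1 higher and 0 lower were called, beside 4.58% and 3.21%. In the interaction 9 higher and 2 lower were called, beside 11.2% and 12.1%. The list's median log2 fold change with tumour was -0.53 in BECs and 0.10 in HECs, beside 0.0083 and 0.019 over all genes. Genes called in at least 3 of the 4 comparisons were Dll4, Edn1 and Vwf.

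Dll4, the arterial Notch ligand, had a mean of 1129 normalised counts in BEC normal against 53 in BEC tumour, beside 228 in HEC normal and 194 in HEC tumour, with a log2 fold change of -4.41 ± 0.24 for BEC tumour against BEC normal. Vwf, the clotting protein of endothelial granules, had means of 1029, 259.8, 181 and 426 in the same order, and its log2 fold change in BECs was -1.99 ± 0.18. Edn1, which encodes the vasoconstrictor endothelin-1, ran the other way between BEC normal, at 80.3, and BEC tumour, at 314, and was 925 in HEC normal and 1588 in HEC tumour. The junction gene Cldn5, a known SOX18 target that was singled out after its values were seen, had means of 17771 in BEC normal against 23.8 in BEC tumour, beside 74.7 in HEC normal and 67.2 in HEC tumour. Dll4, Vwf and Cldn5 were highest in BEC normal, as Sox17 and Sox18 were, while Edn1 was lowest there. These genes were picked by calls that include comparisons with BEC normal, or after their values were seen. A part of SOX17 or SOX18 in their levels was not tested.

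EO771 tumour cells had few or no counts of most factors. Sox7, Sox17, Fli1 and Gata2 had 0 counts in all 6 libraries, and a count of 0 allows a level of up to 3 counts in a library. Sox18 had 1, 3 and 1 counts with vehicle and 0 in each 12-HETE library, and Erg had 0, 1 and 0 with vehicle and likewise 0 with 12-HETE. These 6 genes fell under the filter and were not tested. Ets1, Klf2, Klf4 and Nr2f2, which are expressed well beyond endothelium, were tested, and 0 of 4 were called by DESeq2 and 0 by edgeR, 3 having an unadjusted p under 0.05 (53.2% of all genes did), where 2.38% of the 11602 genes tested were called higher and 7.79% lower with 12-HETE. The median log2 fold change of the 4 was -0.18, beside 0.0012 over all genes.

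Klf4 counts normalised to library size were 5948, 5271 and 5733 with vehicle and 3515, 3532 and 3474 with 12-HETE, groups that did not overlap. Its log2 fold change was -0.69 ± 0.085 (adjusted p = 9.42e-15), under the fold threshold. Ets1 was 2547, 2682 and 3056 with vehicle and 2014, 1957 and 1987 with 12-HETE, again without overlap, with a log2 fold change of -0.48 ± 0.10 (adjusted p = 1.92e-05). Both factors were thus lower in all 3 treated libraries. Klf2 was 3461, 3297 and 3013 with vehicle and 3763, 3789 and 3683 with 12-HETE, and its log2 fold change of 0.20 ± 0.089 (adjusted p = 0.0507) missed the threshold. Nr2f2 was 452, 386 and 472 and 449.8, 480.0 and 494, groups that overlapped, with a 95% interval of -0.14 to 0.38 for the log2 fold change. These fits took the libraries as unpaired. With same-numbered libraries paired, DESeq2 gave -0.69 ± 0.11 (adjusted p = 1.76e-09) for Klf4 and -0.47 ± 0.12 (adjusted p = 2.91e-04) for Ets1. For Klf2 it gave 0.20 ± 0.11 (adjusted p = 0.120), and for Nr2f2 0.12 ± 0.17 (adjusted p = 0.585).

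**Figure D4:**
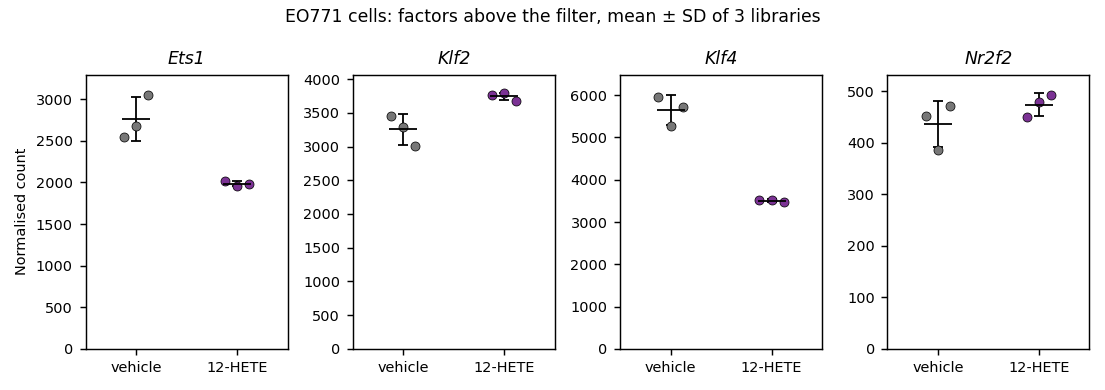
Normalised counts (vertical axes, linear from 0) of the 4 factors that passed the filter in EO771 cells, in each of 3 vehicle and 3 12-HETE libraries (points), with mean and SD. The 12-HETE libraries lie below the vehicle libraries for Ets1 and Klf4 and above them for Klf2.

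Among the relatives, 32 could be tested in EO771 cells and 0 higher and 3 lower were called, beside 2.38% and 7.79% of all genes. The lowest were Klf10, a target of TGF-β signalling, at -1.88 ± 0.093 log2 (adjusted p = 1.40e-88) and Klf6, a wound response factor, at -1.34 ± 0.15 log2 (adjusted p = 8.89e-19). The value of Klf4 had the sign of these 2 KLF genes and that of Klf2 did not. The 8 immediate early genes summed to 1877 to 2057 CPM with vehicle and 353 to 371 CPM with 12-HETE, and 8 of 8 were called lower. Their part in the Klf4 and Ets1 differences was not tested. Of the 9 other endothelial factors tested there 0 higher and 0 lower were called, and 4 had an unadjusted p under 0.05 (53.2% of all genes did). Of 14 vascular genes tested 1 higher and 7 lower were called, beside the same 2.38% and 7.79% of all genes.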

How the data were processed

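Total RNA of 12 sorted endothelial libraries and 6 EO771 libraries was sequenced. According to the methods of the study, the authors mapped reads to GRCm38 with STAR and counted fragments with featureCounts. The EO771 table was deposited as raw counts. The endothelial table is named as raw counts too, but its whole-number values rise in steps of nearly 4 units, so they were treated as estimated counts as deposited and also refitted after division by the step. Library kits are named differently in the labels and the methods, and the use of strand is not given in the sources used here.

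Genes with a mean under 10 were removed and the rest fitted with DESeq2 1.42.0 in R 4.3.3, group as the only term, with Wald tests and Benjamini-Hochberg adjustment. Alternatives were edgeR 4.0.16 (quasi-likelihood), TMM factors, no filter, the adjusted p alone, a test against a log2 fold change of 1, the replicate block, division by the step, fits of 2 groups alone and leaving out each library. An exact permutation test of 3 against 3 libraries cannot go below 0.1 and was not used. The interaction is the log2 difference of tumour and normal HECs minus that of tumour and normal BECs. TPM used GENCODE vM21 exonic lengths, and promoters came from RefSeq, with an entry for 5 of the 10 factors. Scripts were tested on simulated counts. Same-numbered EO771 libraries deviated together (r = 0.11, 0.19 and 0.34 for the 3 pairs), so the numbers were taken to pair them, and the paired fit called 0 factors, as the unpaired fit did. The EO771 values under Results are of the unpaired fit unless named as paired. Pairing gave a larger adjusted p for each tested factor.

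The factors, the gene lists and the marker lists were chosen with earlier results of these data known. Named genes were the 10 factors throughout, the 2 genes most alike to each, of the relatives and the other endothelial factors the 2 highest and 2 lowest called genes with a mean of at least 100 per comparison, and of the vascular genes those called in at least 3 of 4 comparisons. A comparison of the SOXF coding sequences is not reported here.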

Additional observations from a re-analysis of the deposited data

Results flagged for a closer look

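Of the 10 factors, 7 changed with tumour differently in HECs and BECs at an adjusted p under 0.05 of the interaction in DESeq2, as did 46.7% of all genes tested, and values are the log2 change in HECs less that in BECs. Sox17 gave 6.40 ± 1.09 and Sox18 5.64 ± 0.28, their levels in BEC normal being far above those of the other 3 groups. Sox17 held only 7 and 3 steps in all in HEC normal and HEC tumour, so a fall in HECs could hardly be detected. Its interaction rests on the BEC values and is no bound. Nr2f2 gave 1.69 ± 0.22, from a call of lower in BECs and a positive value under the fold threshold in HECs. Ets1 gave 1.16 ± 0.36, the value that turns on the split among the BEC normal libraries. Klf4 gave 0.74 ± 0.086, positive in HECs and negative in BECs, both under the fold threshold. Sox7 gave -0.74 ± 0.11, positive in both cell types and larger in BECs. Erg gave -1.40 ± 0.19, positive in BECs and negative in HECs, both under the fold threshold. Groups of 3 libraries are too small for a test of single outlying samples.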

How the results depend on the processing

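Counts of called factors depended mainly on the fold threshold. With the adjusted p alone they were 9 for HEC normal against BEC normal, 8 for HEC tumour against BEC tumour, 6 for HEC tumour against HEC normal, 8 for BEC tumour against BEC normal, 7 for the interaction and 2 of 4 in EO771 cells, where 63.3, 54.3, 35.4, 53.7, 46.7 and 47% of all genes tested passed the same threshold. Tested against a log2 fold change of 1 they were 4, 4, 0, 2, 3 and 0. edgeR gave 5, 5, 0, 4, 5 and 0. Division by the step gave 5, 5, 0, 4 and 5 in the endothelial libraries, with Erg gained in HEC normal against BEC normal. Leaving out 1 library gave 4 to 5, 5, 0 to 1, 3 to 5, 4 to 5 and 0, in the same order. The share of all genes called under these settings, or with the replicate block below, is not given here. These counts therefore show only how the calls of the factors moved. Of 1036 refitted values of single factors, 983 kept their direction and call, 33 gained a call, 9 lost one and 11 changed sign, all of the last uncalled. These were Gata2 in HEC normal against BEC normal, at 0.016 with edgeR and 0.016 with TMM factors and at 0.11 and 0.12 without replicates 1 and 3 of HEC normal (range on leaving out 1 library -0.33 to 0.12). Fli1 in BEC tumour against BEC normal was 0.019 with edgeR, 0.018 with TMM factors, 0.025 in a fit of the 2 groups alone, and 0.030 and 0.043 without BEC normal replicate 1 or BEC tumour replicate 3 (range -0.078 to 0.043). Sox17 was -0.32 in HEC tumour against BEC tumour without BEC tumour replicate 3 (range -0.32 to 1.44), and 0.24 in HEC tumour against HEC normal without HEC normal replicate 2 (range -1.33 to 0.24). The cause of these shifts was not tested.

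The replicate block changed no count of called factors, which were 4, 5, 0, 4, 5 and 0 in the same order. The endothelial replicate numbers were not treated as a pairing, since deviations of same-numbered libraries correlated at -0.027 to 0.21 over 18 pairs, with 2 over 0.1. Sox17 outside BEC normal stands on so few fragments that depth limits any difference there.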
